A study of Mus musculus with 12 samples.

Results

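The genes described here are those of the mouse major histocompatibility complex (MHC) and its antigen presentation machinery. They were chosen by name from the deposited expression table: every symbol that starts with H2-, the mouse MHC prefix, together with B2m, Cd74, Ciita, Nlrc5, Tap1, Tap2 and Tapbp. This gave 49 genes of 23234 symbols. By class they comprised 2 class Ia heavy chains, 28 class Ib (nonclassical) heavy chains, 4 genes of the class I light chain and peptide loading, 5 classical class II chains, 6 class II accessory chains, 2 transactivators and 2 genes that carry an H2- symbol for another reason. Of the 49, 34 reached at least 1 FPKM in at least 4 of the 12 libraries and were tested, and 15 did not.

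The study compared RNA of pancreatic islets before and after their transplantation into the fat pad under the skin of the groin. Total RNA was sequenced from 3 groups of 4 libraries, all labelled with the C57BL/6 strain and the tissue islet: isolated islets, grafts taken at day 60 and grafts taken at day 120. No genotype other than the strain and no treatment other than transplantation was labelled, and the host, age and sex of the mice are not given in the sources used here. Nothing in the labels says that the libraries of a group came from separate animals or islet preparations, so a p-value speaks only of how far these libraries lie apart, and that distance may be technical.

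MHC class I molecules show peptides from inside the cell to CD8+ T cells on most nucleated cells. A heavy chain (H2-K or H2-D in mice) pairs with the light chain beta-2-microglobulin (B2m), and peptides reach it through the transporter Tap1/Tap2 with the help of tapasin (Tapbp). MHC class II molecules are made mainly by dendritic cells, macrophages and B cells and show peptides from the endocytic route to CD4+ T cells. The alpha and beta chains assemble with the invariant chain Cd74, H2-DM exchanges the remaining Cd74 fragment for peptide, and H2-O restrains H2-DM, above all in B cells. Ciita switches on class II genes, and Nlrc5 acts on class I genes. C57BL/6 mice carry the b haplotype, which lacks H2-L and does not express the E alpha chain.

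The reference sequences of the genes the results turn on are shown first, because class I and class II genes have known promoter elements. RefSeq promoter windows on the build GRCm38.p6 existed for 35 of the 49 genes. The stretches below lie within the 250 bases before each start, are written 5′ to 3′ on the strand of the gene, and carry in capitals every match, on either strand, to 6 motifs: the Y box ATTGG (reverse strand CCAAT), the X box core GCAACAG, the cyclic AMP element core TGACG, the interferon regulatory factor motif AANNGAAA, the gamma activated site TTCNNNGAA and the kappaB site GGGGATTCC of class I genes. First come 4 class II chains, at chr17:34287824-34287943 on the minus strand for H2-Aa, and on the plus strand at chr17:34305747-34305866 for H2-Eb1, chr17:34153071-34153190 for H2-DMb1 and chr17:34238785-34238904 for H2-Ob.
H2-Aa: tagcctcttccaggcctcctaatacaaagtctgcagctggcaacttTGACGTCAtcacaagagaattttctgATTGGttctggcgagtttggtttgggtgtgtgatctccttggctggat
H2-Eb1: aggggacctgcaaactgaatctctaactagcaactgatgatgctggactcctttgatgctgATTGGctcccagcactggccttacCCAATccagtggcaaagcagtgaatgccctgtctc
H2-DMb1: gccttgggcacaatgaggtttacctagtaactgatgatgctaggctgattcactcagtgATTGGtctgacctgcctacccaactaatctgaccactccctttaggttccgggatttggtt
H2-Ob: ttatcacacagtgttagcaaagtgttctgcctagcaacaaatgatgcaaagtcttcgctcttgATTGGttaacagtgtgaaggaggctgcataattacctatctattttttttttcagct

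A Y box match on the gene's own strand, starting within 100 bases of the start, was present in 7 of the 8 class II chain genes with a window, against 10.4% of all 32851 windows. In H2-Aa the match began 48 bases before the start, in H2-Eb1 59, in H2-DMb1 61 and in H2-Ob 57, and in H2-Eb2 at exactly 100. The match was not confined to class II: in H2-K1 it began 16 bases before the start, in H2-D1 76 and in B2m 53. Among class Ib genes, H2-Q2, H2-Q4, H2-Q6, H2-Q7, H2-T22, H2-M1, H2-M3 and H2-M9 hold it too. Others, such as H2-Q10 and H2-T23, do not. On either strand and over all 250 bases, ATTGG was found in 33.8% of all windows. The exact letters GCAACAG were in 4.46% of all windows and in none of the class II windows. In H2-Aa the TGACG matches of both strands overlap, and 17.8% of all windows hold TGACG. A match is a description of the reference and not a site of binding.

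The class I stretches come next, and those of H2-K1, H2-D1 and B2m hold TGACG before ATTGG, as H2-Aa does. They lie at chr17:34000348-34000497 on the minus strand for H2-K1, and on the plus strand at chr17:35262914-35263093 for H2-D1 and chr2:122147537-122147686 for B2m. The last stretch is the whole interval of 225 bases between the starts of the immunoproteasome gene Psmb9, which is read to the left, and Tap1, which is read to the right, at chr17:34187331-34187555.
H2-K1: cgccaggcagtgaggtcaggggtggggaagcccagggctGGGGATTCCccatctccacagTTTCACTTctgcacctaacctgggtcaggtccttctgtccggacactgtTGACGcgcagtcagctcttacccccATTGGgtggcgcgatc
H2-D1: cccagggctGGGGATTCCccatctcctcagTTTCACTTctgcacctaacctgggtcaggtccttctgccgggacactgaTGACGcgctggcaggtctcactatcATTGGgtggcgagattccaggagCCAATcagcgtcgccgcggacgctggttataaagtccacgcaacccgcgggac
B2m: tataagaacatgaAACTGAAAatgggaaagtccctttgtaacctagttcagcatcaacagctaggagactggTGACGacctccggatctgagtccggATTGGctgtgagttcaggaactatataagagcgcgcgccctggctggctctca
Tap1: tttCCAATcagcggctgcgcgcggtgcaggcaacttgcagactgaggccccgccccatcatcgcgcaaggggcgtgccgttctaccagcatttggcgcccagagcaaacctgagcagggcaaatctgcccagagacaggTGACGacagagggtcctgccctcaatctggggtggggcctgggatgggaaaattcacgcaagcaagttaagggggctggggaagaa

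H2-K1 and H2-D1 hold, in the same order, the kappaB letters GGGGATTCC, the interferon regulatory factor motif read on the other strand, TGACG and ATTGG. GGGGATTCC occurs in 0.213% of all windows, and among the genes described here in 4: H2-K1, H2-D1, H2-Q6 and H2-Q7. The interferon regulatory factor motif occurs in 21.3% of all windows and the gamma activated site in 7.02%. B2m has the interferon regulatory factor motif, TGACG and ATTGG on its own strand and no kappaB match in this window.

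The deposited values are FPKM, a fragment number divided by the length of the gene and by the size of the library, and total depth is unknown. FPKM summed to between 396769 and 786366 per library. The 10 islet endocrine markers summed to 119373 to 414489 FPKM in isolated islets, 68405 to 111719 at day 60, below every isolated islet library, and 136899 to 158454 at day 120, with the insulin gene Ins2 listed at 0 in all 12 libraries. Of the 9 tested, 1 was higher and 1 lower at each time. Chromogranin A (Chga) was at 5745 to 6767 FPKM in isolated islets, 1292 to 6227 at day 60 and 4806 to 6599.6 at day 120. The summed leukocyte, macrophage, fibroblast and adipocyte markers were higher in every graft than in every isolated islet library: the 14 macrophage markers summed to 59.9 to 104 FPKM in isolated islets, 473 to 4601 at day 60 and 336 to 568 at day 120. Day 60 replicate 1 stood apart in all 4 lists, with macrophage markers at 4601 against 473 to 1176 in the other day 60 grafts, fibroblast markers at 5388 against 741 to 1108 and adipocyte markers at 2632 against 69.9 to 811. Day 60 replicate 2 stood apart in the 8 B cell markers, which summed to 124 FPKM there and to 4.76 to 17.4 in the other 11 libraries, and in the 9 T and NK cell markers, at 70.4 against 2.27 to 26.8. In isolated islet replicate 1 several class I pathway genes were low, as given below. In bulk RNA of this kind, more cells of a type and more RNA per cell cannot be told apart, and what part the marker lists play in any result below was not tested. At day 60, 7 of 7 pan-leukocyte, 13 of 14 macrophage, 6 of 8 dendritic cell, 6 of 6 fibroblast, 5 of 6 adipocyte, 4 of 4 T and NK cell, 2 of 7 endothelial and 0 of 3 B cell markers tested were higher, against 31.3% of all genes tested. The numbers listed were 11 for dendritic cells, 9 for T and NK cells and 8 for B cells. All 9 T and NK cell markers together summed to 2.27 to 3.87 FPKM in isolated islets. The 4 tested thus did not all reach 1 FPKM there, and the filter favoured their count. The B cell factor Pax5 was listed at 0 in all 4 isolated islet libraries. Changes are given as log2 of FPKM + 1, which understates the change of low genes, with limma's standard error (SE) and the p adjusted over all 13433 genes tested. Both graft groups were compared with the same isolated islets.

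At day 60, 18 of the 34 genes tested were higher than in isolated islets and 0 were lower, by limma at an adjusted p under 0.05. The same rule called 31.3% of all genes higher and 12.3% lower. An unadjusted p under 0.05 was found in 22 of the 34, against 7056 of all 13433 genes. In 18 of the 34 every graft lay above every isolated islet library, against 22% of all genes tested. The counts by class were 8 of 8 class II genes tested, with a median change of 2.36, 0 of 2 class Ia heavy chains (median 0.63), 1 of 4 genes of the light chain and loading (median 0.09) and 8 of 17 class Ib heavy chains (median 0.74). The median over all genes was 0.27. Of the 8 class II genes, Cd74, H2-Aa, H2-Ab1, H2-Eb1 and H2-DMa were at 1 FPKM or more in all isolated islet libraries, whereas H2-DMb1 reached it in 1 of them and H2-DMb2 and H2-Oa in none. Those 3, like H2-M2, H2-T22 and Ciita, entered the test through the grafts, where they were high, so that their part of the counts and medians was favoured by the filter. With no filter 8 of 10 class II genes were called at day 60. At day 120, 13 of the 34 had an unadjusted p under 0.05, against 6020 of all 13433 genes. By the adjusted p 8 of the 34 rose and 0 fell, where 24.3% of all genes were called higher and 7.03% lower. Of these 8, 6 were class II genes, and the others were B2m and H2-T22. In 15 of the 34 every day 120 graft lay above every isolated islet library, against 28.3% of all genes tested. Other scalings between libraries altered this split: at day 60 the 34 genes gave 17 higher and 1 lower with upper quartile scaling and 15 higher and 2 lower with quantile normalization or a sum that leaves out hormone and acinar genes, while all genes went from 4211 higher and 1654 lower to 3462 and 2251, 2395 and 2909, and 2338 and 2870. At day 120 the 34 genes gave 7, 9 and 8 higher and each time 1 lower, while all genes went from 3268 higher and 944 lower to 2347 and 1332, 1529 and 1826, and 1824 and 1289. All 8 class II genes stayed called at day 60 under each of these scalings.

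**Figure D1:**
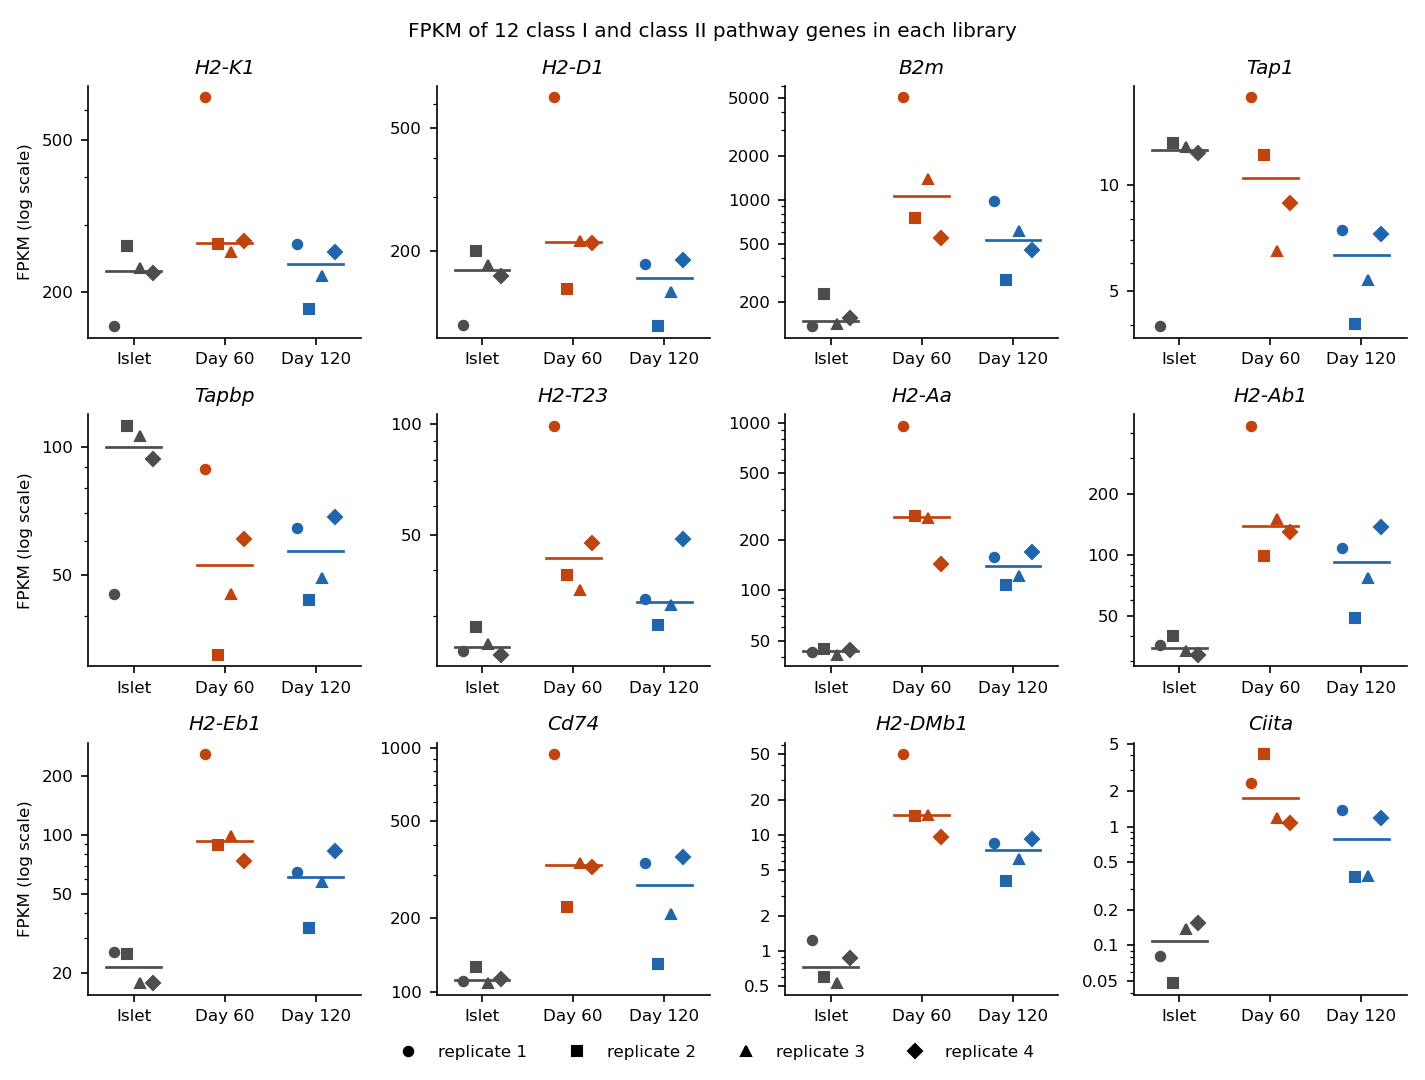
FPKM of 12 class I and class II pathway genes in each of the 12 libraries, on log axes that differ between panels; symbols mark the replicate number and lines the group medians. The class II genes H2-Aa, H2-Ab1, H2-Eb1, Cd74 and H2-DMb1 lie higher in all 8 grafts than in all 4 isolated islet libraries, whereas H2-K1, H2-D1, Tap1 and Tapbp overlap, and day 60 replicate 1 is the highest day 60 graft in 11 of the 12 panels.

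The classical class II chains rose at both times. H2-Aa, the alpha chain of I-A, stood at 42.9, 44.9, 41.2 and 44.2 FPKM in isolated islet replicates 1 to 4, at 957, 278, 269.8 and 143 in the day 60 grafts and at 159, 107, 121 and 170.2 in the day 120 grafts. Isolated islets thus varied by little, and the lowest graft of either time was above all of them. The change was 2.85 at day 60 (SE 0.42, adjusted p = 0.000656) and 1.64 at day 120 (SE 0.42, adjusted p = 0.0149).

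H2-Ab1, the beta chain that pairs with H2-Aa, was at 36.2, 39.8, 33.8 and 32.3 FPKM in isolated islets, 431, 99.3, 149.7 and 129 at day 60 and 108, 49.1, 76.8 and 138 at day 120. It rose by 2.23 at day 60 (adjusted p = 0.00171) and by 1.27 at day 120 (adjusted p = 0.0331). No graft overlapped an isolated islet library, but the day 120 call was lost when isolated islet replicate 2, 3 or 4 or day 120 replicate 1, 3 or 4 was left out (adjusted p from 0.0566 to 0.0966). H2-Eb1, the beta chain of I-E, was at 25.7, 25.0, 17.7 and 17.7 FPKM, then 257, 88.7, 98.6 and 74.1, then 64.9, 33.7, 57.8 and 83.3. It rose by 2.37 (adjusted p = 0.000721) and by 1.39 (adjusted p = 0.0153), the latter at an adjusted p of 0.0504 without isolated islet replicate 4. H2-Ea-ps, the row of the E alpha chain that this haplotype does not express, was listed at 0 in all 12 libraries. H2-Eb2 was at or under 0.046 FPKM in isolated islets and at 0.051 to 0.147 at day 120, and reached 1 FPKM only in day 60 replicate 2, at 2.02.

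Cd74, the invariant chain that guides class II molecules to the endocytic route, was the class II gene with the highest level in isolated islets, at 110.3, 127, 108 and 112 FPKM. It stood at 939, 223, 338 and 325 FPKM at day 60 and at 336, 130.2, 208 and 357 at day 120. It rose by 1.76 at day 60 (SE 0.40, adjusted p = 0.00494). At day 120 the difference of 1.06 missed the threshold (adjusted p = 0.061), although every graft was above every isolated islet library. It passed at 0.0397 in the fit with the replicate number as a block and at 0.00884 without day 60 replicate 1.

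The beta chains of H2-DM, the peptide exchanger, had the largest changes of the 34 genes at day 60. H2-DMb1 reached 1 FPKM in 1 isolated islet library and H2-DMb2 in none, so both entered the test, and this ranking, through the grafts. H2-DMb1, a beta chain, was at 1.25, 0.600, 0.532 and 0.878 FPKM in isolated islets, 49.9, 14.8, 14.9 and 9.68 at day 60 and 8.57, 4.03, 6.27 and 9.29 at day 120. Its rise of 3.42 at day 60 (SE 0.40, adjusted p = 0.000127) was followed by 2.11 at day 120 (adjusted p = 0.00414). H2-DMb2, the other beta chain, was at 0.630, 0.066, 0.165 and 0.125 FPKM in isolated islets, at 17.5, 18.3, 5.26 and 4.54 at day 60 and at 5.46, 2.30, 1.78 and 4.07 at day 120, with rises of 3.10 and 1.76 (adjusted p = 0.000354 and 0.0104). The day 120 call of H2-DMb2 was lost with a pseudocount of 5 (adjusted p = 0.0927). The reference transcripts of H2-DMb1 and H2-DMb2 share 22.7% and 25.9% of their 50-base words with other genes, chiefly each other, so their reads may be divided between the rows in a way the sources used here do not state.

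H2-DMa, the alpha chain that pairs with both, was at 8.05, 6.21, 2.49 and 4.30 FPKM, then 57.9, 21.6, 27.7 and 20.6, then 17.5, 17.2, 18.9 and 22.4. It rose by 2.35 (adjusted p = 0.000486) and 1.75 (adjusted p = 0.00417). The day 120 grafts were close to each other in this gene, and all lay above the isolated islets.

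The H2-O chains followed another library. H2-Oa was at 0.090 to 0.193 FPKM in isolated islets, at 4.12, 10.7, 3.52 and 1.42 at day 60 and at 2.10, 0.192, 1.17 and 1.08 at day 120. Admitted by the filter only through 7 grafts, it rose at day 60 (2.15, adjusted p = 0.00179) and missed the threshold at day 120 (0.82, adjusted p = 0.123). Its partner H2-Ob was at 0.264, 0.031, 0.233 and 0.059 FPKM in isolated islets, 1.49, 17.1, 0.570 and 0.949 at day 60 and 0.361 to 1.04 at day 120, and did not reach the filter. Both were highest in day 60 replicate 2, the library with the highest summed B cell markers and the highest summed T and NK cell markers. The ratio of H2-Ob to H2-Aa was 0.0614 in that library and 0.000691 to 0.00662 in the other 11. Without day 60 replicates 1 and 2, a setting chosen after seeing the data, all 8 class II genes remained higher at day 60, H2-Oa at 1.54 (adjusted p = 0.00666).

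Ciita, the class II transactivator, was at 0.081, 0.048, 0.137 and 0.154 FPKM in isolated islets, 2.32, 4.09, 1.18 and 1.08 at day 60 and 1.38, 0.378, 0.384 and 1.19 at day 120. It rose at day 60 (1.42, SE 0.28, adjusted p = 0.00255), without overlap but admitted by the filter only through 6 grafts, and missed the threshold at day 120 (0.69, adjusted p = 0.0788). Day 60 replicate 2 was again the highest.

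The class Ia heavy chains did not pass the test at either time. H2-K1 was at 163, 265, 231 and 225 FPKM in isolated islets, 647, 267, 255 and 272 at day 60 and 267, 180.4, 220.2 and 255 at day 120. Day 60 replicate 1 stood alone, and the other 7 grafts lay within or just above the range of the isolated islets. The change was 0.60 at day 60 (SE 0.29, adjusted p = 0.107), 0.28 (adjusted p = 0.234) without that graft, and 0.07 at day 120 (adjusted p = 0.877). H2-D1 was at 115, 200.1, 180.1 and 166 FPKM, then 631, 150.5, 216 and 211, then 181, 114, 146 and 187. Its change was 0.66 at day 60 (SE 0.37, adjusted p = 0.161), 0.23 (adjusted p = 0.421) without replicate 1, and -0.07 at day 120 (adjusted p = 0.9). A p above the threshold does not show that the heavy chains were unaltered.

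B2m encodes the light chain. It was at 135, 225, 141 and 154 FPKM in isolated islets, 5025, 750.0, 1384 and 547 at day 60 and 977, 281, 613 and 451 at day 120, so that every graft lay above every isolated islet library. It rose by 3.01 at day 60 (SE 0.58, adjusted p = 0.00223) and by 2.36 without day 60 replicate 1 (adjusted p = 0.00096). The rise of 1.70 at day 120 (adjusted p = 0.0412) was lost when any 1 of isolated islet replicates 1 to 4, day 60 replicate 3 or day 120 replicate 1, 3 or 4 was left out (adjusted p from 0.0546 to 0.106), with upper quartile scaling (0.0574), with a pseudocount of 5 (0.0549) and with no filter (0.0608). B2m is also the light chain of class Ib molecules and of MHC-like molecules encoded elsewhere.

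None of the 3 peptide loading genes was called higher in the grafts. Tap1, a subunit of the peptide transporter, was at 3.96, 13.2, 12.9 and 12.4 FPKM in isolated islets, 17.8, 12.2, 6.49 and 8.88 at day 60 and 7.48, 4.03, 5.39 and 7.27 at day 120. Isolated islet replicate 1 was the low one, near the lowest graft, while its other 3 libraries lay above all 4 day 120 grafts. The change was 0.12 at day 60 (adjusted p = 0.803) and -0.63 at day 120 (adjusted p = 0.188). Without isolated islet replicate 1 Tap1 was called lower at day 120 (adjusted p = 0.0163). Tap2, the other subunit, was at 11.0, 19.2, 15.9 and 16.1 FPKM, then 20.7, 16.3, 10.7 and 17.2, then 14.3, 12.5, 12.4 and 18.9, with changes of 0.05 and -0.09 (adjusted p = 0.877 and 0.788).

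Tapbp, which bridges class I heavy chains to the transporter, was at 45.1, 112, 106 and 93.6 FPKM in isolated islets, 89.0, 32.4, 45.1 and 60.6 at day 60 and 64.6, 43.5, 49.1 and 68.4 at day 120. Here too isolated islet replicate 1 was the low one, and the other 3 lay above all 8 grafts. The difference was -0.66 at day 60 (adjusted p = 0.123) and -0.60 at day 120 (adjusted p = 0.179). It passed at day 60 without day 60 replicate 1 (-0.90, adjusted p = 0.0284), at both times without isolated islet replicate 1 (-0.96, adjusted p = 0.0194, and -0.89, adjusted p = 0.0316), and at day 60 with 2 of the 3 other scalings between libraries (-0.87 with quantile normalization and -1.07 with scaling to a sum that leaves out hormone and acinar genes).

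**Figure D2:**
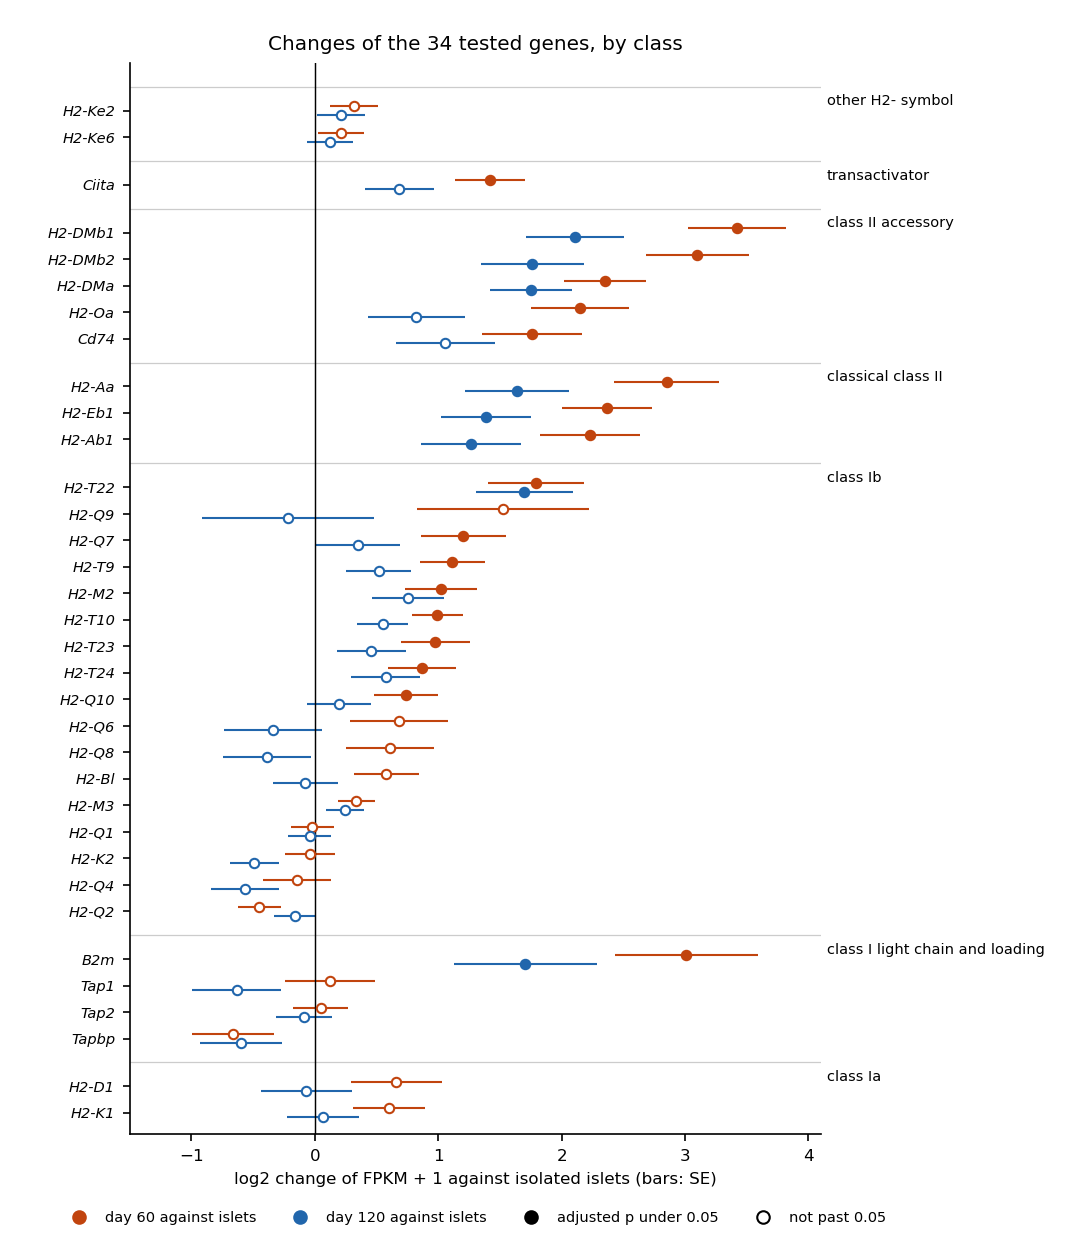
Change of each of the 34 tested genes on the log2(FPKM + 1) scale against isolated islets, at day 60 and day 120, with SE bars and filled points where the adjusted p was under 0.05. The filled points are 18 at day 60 and 8 at day 120 and all lie to the right of 0; the class II genes run from 1.76 to 3.42 at day 60, the class Ia genes from 0.60 to 0.66.

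Ratios within a library do not depend on its scaling, and show the unequal change of the classes. The summed FPKM of H2-Aa, H2-Ab1 and H2-Eb1 was 0.226 to 0.377 times that of H2-K1 and H2-D1 in isolated islets, 0.717 to 1.29 times at day 60 and 0.645 to 0.886 times at day 120. The class II sum itself ran from 92.7 to 109.7 FPKM in isolated islets, 347 to 1645 at day 60 and 189.6 to 391 at day 120. The class Ia sum ran from 278 to 465, 418 to 1277 and 294 to 448 in the same order. B2m was 0.343 to 0.486 times the class Ia sum in isolated islets, 1.13 to 3.93 times at day 60 and 0.955 to 2.18 times at day 120. Cd74 went the other way against its partners: it was 1.05 to 1.19 times the class II sum in isolated islets, 0.479 to 0.939 times at day 60 and 0.686 to 1.01 times at day 120. In each of these 3 ratios no graft overlapped an isolated islet library.

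Set against leukocyte genes the class II sum gave lower or overlapping ratios in grafts. It was 11.6 to 46.8 times Tyrobp, an adaptor of myeloid and natural killer cells, in isolated islets, 2.92 to 7.43 times at day 60 and 3.33 to 10.4 times at day 120. It was 77.6 to 116 times Ptprc, the leukocyte gene CD45, in isolated islets, 16.0 to 97.8 times at day 60 and 39.1 to 122 times at day 120, with overlapping ranges. The lowest ratio to Ptprc was that of day 60 replicate 2.

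**Figure D3:**
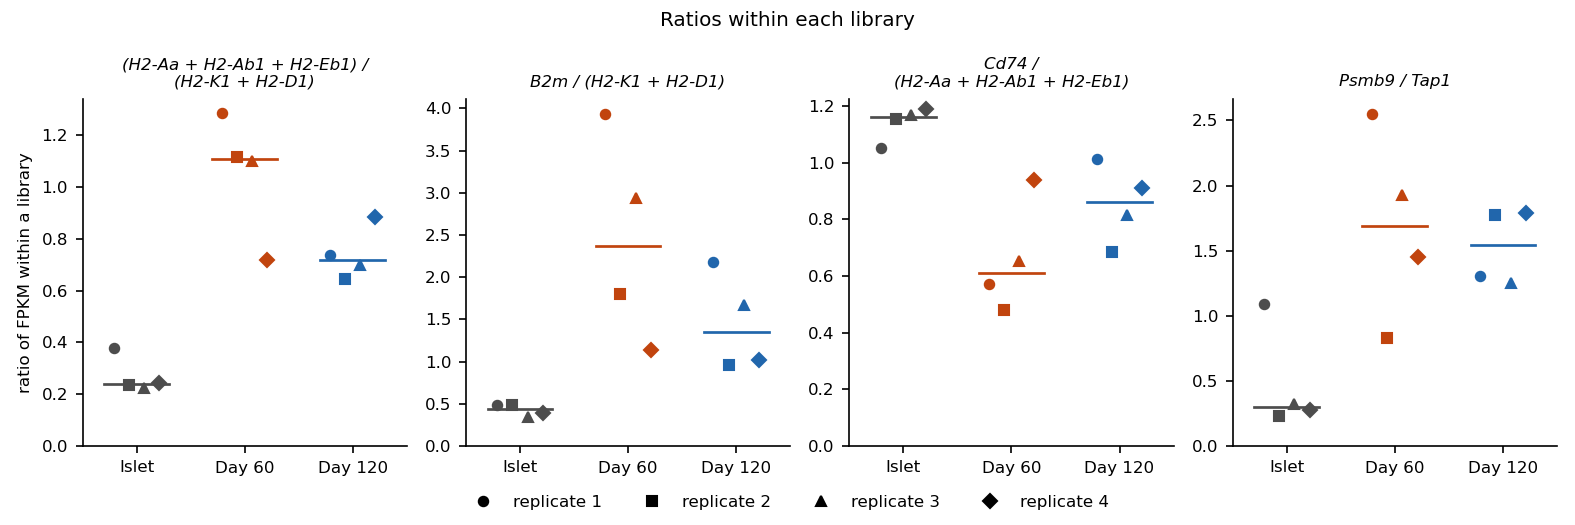
Ratios of FPKM within each library on linear axes that start at 0, with lines at the group medians: classical class II to class Ia, B2m to class Ia, Cd74 to class II, and Psmb9 to Tap1. The first 2 are higher in every graft than in every isolated islet library and the third is lower; in the last, isolated islet replicate 1 (1.09) overlaps the grafts.

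The class Ib heavy chains are given by family, and a difference between families was not tested. All 5 tested H2-T genes rose at day 60, where 31.3% of all genes did, with a median of 0.99. H2-T23, which encodes Qa-1 and shows leader peptides of class I chains to natural killer cells, was at 24.1, 28.0, 25.2 and 23.5 FPKM in isolated islets, 99.1, 38.9, 35.3 and 47.5 at day 60 and 33.5, 28.4, 32.1 and 48.7 at day 120. It rose by 0.98 at day 60 (adjusted p = 0.0145) and by 0.66 without replicate 1, and missed the threshold with the scaling that leaves out hormone and acinar genes (adjusted p = 0.0539). At day 120 every graft was above every isolated islet library, but the difference of 0.46 missed the threshold (adjusted p = 0.22).

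H2-T9 was at 11.7, 14.4, 15.9 and 15.4 FPKM, then 63.0, 22.5, 30.1 and 24.5, then 22.0, 18.2, 22.0 and 21.5, and rose by 1.12 at day 60 (adjusted p = 0.00584). Its symbol matched no gene of the reference annotation, so the 50-base words it shares with other genes were not counted. H2-T10 was at 2.78, 3.68, 3.55 and 3.99 FPKM in isolated islets, 12.7, 6.97, 7.79 and 5.58 at day 60 and 5.35, 5.51, 5.99 and 5.40 at day 120, and rose by 0.99 at day 60 (adjusted p = 0.0032). The reference annotation lists H2-T10 as a transcribed pseudogene. H2-T22, a ligand of some gamma delta T cells, was at 2.96 and 0.682 FPKM and listed at 0 in 2 isolated islet libraries, at 6.69, 5.93, 4.36 and 2.36 at day 60 and at 3.99 to 4.57 at day 120. Its calls at day 60 (1.79, adjusted p = 0.00404) and day 120 (1.70, adjusted p = 0.00963) are uncertain, because a value of 0 can be a failed estimate and because 53.5% of its 50-base words, like 50.4% of those of H2-T10, occur in other genes. H2-T24 was at 2.84, 2.42, 2.86 and 2.68 FPKM, then 10.8, 6.04, 3.65 and 4.38, then 7.03, 4.56, 3.05 and 4.09, and rose by 0.87 at day 60 (adjusted p = 0.0241), a call lost without isolated islet replicate 2, 3 or 4 (adjusted p from 0.0503 to 0.0611) and with 2 of the 3 other scalings.

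Of the 8 tested H2-Q genes, 2 rose at day 60, where 31.3% of all genes did, and the median of the 8 was 0.64. H2-Q7, a Qa-2 gene, was at 6.47, 3.45, 4.48 and 7.64 FPKM in isolated islets, 28.4, 16.7, 9.90 and 6.81 at day 60 and 6.32 to 7.60 at day 120, a rise of 1.20 at day 60 (adjusted p = 0.0143) although the groups overlapped. Without day 60 replicates 1 and 2 the change of H2-Q7 was 0.55 (adjusted p = 0.108). H2-Q10 rose by 0.74 (adjusted p = 0.0353), from 2.71 to 3.56 FPKM to 12.5, 4.93, 4.48 and 4.56, and was lost without any 1 of the 4 isolated islet libraries (adjusted p from 0.0606 to 0.0746). It was also lost with each of the 3 other scalings. H2-Q8 was at 9.32, 16.3, 14.7 and 10.9 FPKM in isolated islets, 24.2, 42.7, 10.7 and 12.8 at day 60 and 7.99, 9.25, 7.81 and 13.1 at day 120, and did not pass at either time. Like H2-Q9, at 38.3 FPKM, it was highest in day 60 replicate 2. The change of H2-Q9 at day 60 was 1.52 (adjusted p = 0.0934), and it passed without day 60 replicate 3 (adjusted p = 0.0287). H2-Q4 was at 40.5 FPKM in isolated islet replicate 1 and 86.0 to 88.7 in the other 3, against 43.4 to 57.3 at day 120, a difference of -0.57 (adjusted p = 0.128) that was -0.84 without replicate 1 (adjusted p = 0.0116). H2-Q2 was at 40.0 to 48.7 FPKM in isolated islets and 28.6 to 42.9 at day 60, a difference of -0.45 (adjusted p = 0.0509) that passed at 0.0297 without isolated islet replicate 1, at 0.0201 without day 60 replicate 4, at 0.0447 without day 120 replicate 1, at 0.0318 with the replicate block and with each of the 3 other scalings. H2-Q1 and H2-Q6 did not pass at either time. The H2-Q genes resemble each other and the class Ia genes: H2-Q4, H2-Q6 and H2-Q7 share 36.4%, 35% and 26.5% of their 50-base words with other genes, so all these rows are uncertain.

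Among the H2-M genes, H2-M3, which shows formylated peptides, was at 7.38, 8.63, 8.20 and 6.99 FPKM in isolated islets, 11.1, 10.8, 8.81 and 9.75 at day 60 and 7.89, 10.3, 8.75 and 11.0 at day 120, with a change of 0.34 (adjusted p = 0.0865) and 0.24 (adjusted p = 0.225). All day 60 grafts lay above the isolated islets, by little. H2-M2 was at 0.042, 0.141, 0.153 and 0.117 FPKM in isolated islets, 2.11, 2.59, 0.190 and 0.978 at day 60 and 0.855, 0.458, 1.12 and 1.17 at day 120, and, admitted by the filter only through 4 grafts, rose at day 60 (1.02, adjusted p = 0.0138), a call lost with quantile normalization and without day 60 replicates 1 and 2. H2-Bl and H2-K2, also annotated as transcribed pseudogenes, did not pass at either time. H2-K2 was at 9.78 to 12.1 FPKM in isolated islets and 5.84 to 8.88 at day 120, without overlap. Its difference of -0.49 at day 120 (adjusted p = 0.0786) passed with each of the 3 other scalings (adjusted p from 0.0323 to 0.0419). H2-Ke2, a prefoldin subunit gene also named Pfdn6, and H2-Ke6, a dehydrogenase gene, lie in the complex without a part in antigen presentation and did not pass, with changes of 0.32 and 0.21 at day 60.

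Of the 15 genes below the filter, Nlrc5 was at 0.121, 0.577, 0.995 and 0.952 FPKM in isolated islets, 3.22, 4.28, 1.90 and 0.793 at day 60 and 0.374 to 0.998 at day 120. With every gene fitted, its difference at day 60 was 1.02 (adjusted p = 0.0269), and the groups overlapped. In all isolated islet libraries H2-M9 was listed at 0, and at 0.360 to 1.44 FPKM in the 8 grafts, and passed in that fit at both times (adjusted p = 0.00636 and 0.0164), calls that are uncertain because a value of 0 can be a failed estimate. H2-M5 ranged from 0.211 to 1.90 FPKM in isolated islets and 0.342 to 0.973 in grafts, and H2-T3, the thymus leukaemia antigen, at 0.376 to 1.71 over all 12 libraries. The 8 others of the H2-M family (H2-M1, H2-M10.1 to H2-M10.6 and H2-M11), which include genes of the vomeronasal organ, never exceeded 0.264 FPKM.

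**Figure D4:**
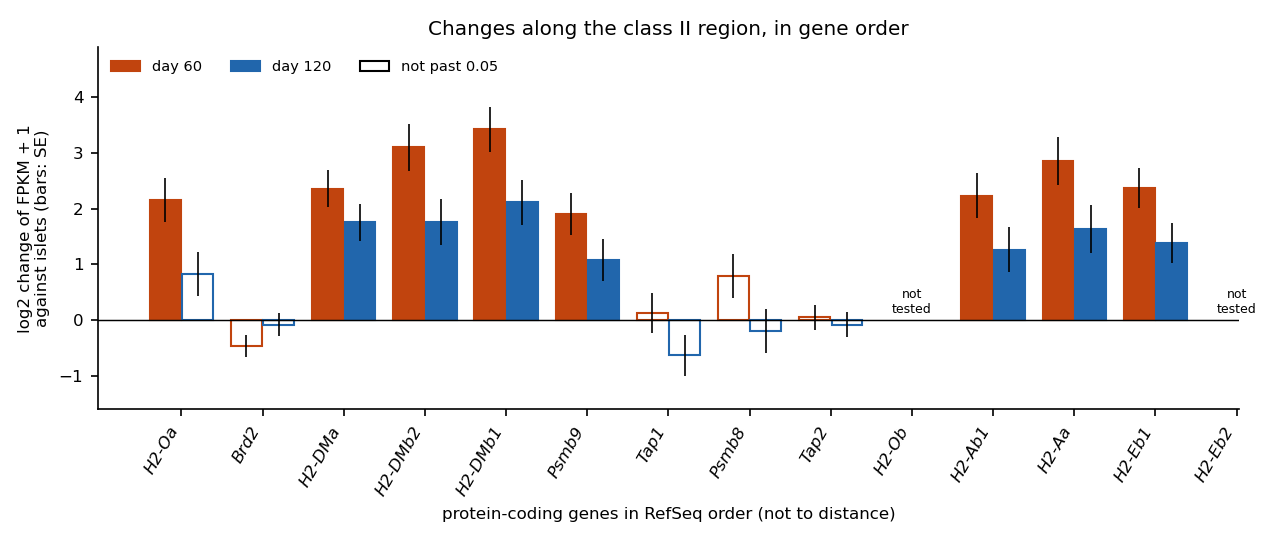
Change of each gene on the log2(FPKM + 1) scale against isolated islets along the class II region, from H2-Oa to H2-Eb2 in RefSeq order, with SE bars; filled bars passed an adjusted p of 0.05. The tested class II chains and Psmb9 are filled at day 60, while Tap1, Psmb8, Tap2 and Brd2 between or beside them are open; H2-Ob and H2-Eb2 were not tested.

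Genes that did and did not rise lie next to each other. Between H2-Oa and H2-Eb2 the annotation lists 14 protein-coding genes, of which 12 were tested. H2-DMa, H2-DMb2 and H2-DMb1 are followed by Psmb9, Tap1, Psmb8 and Tap2, then H2-Ob, and then H2-Ab1, H2-Aa and H2-Eb1. Psmb9, a catalytic subunit of the immunoproteasome, was at 4.33, 3.04, 4.14 and 3.39 FPKM in isolated islets, 45.4, 10.1, 12.5 and 12.9 at day 60 and 9.79, 7.16, 6.73 and 13.0 at day 120. It rose at both times (1.91, adjusted p = 0.0024, and 1.07, adjusted p = 0.0448), while Tap1, which starts on the other side of the interval of 225 bases printed above, did not. The ratio of Psmb9 to Tap1 was 0.231 to 0.322 in isolated islet replicates 2 to 4 and 1.09 in replicate 1, against 0.830 to 2.55 at day 60 and 1.25 to 1.79 at day 120.

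The other genes of the class I route mostly did not pass. Of 14 tested, 1 rose (Psmb9) and 2 fell at day 60, where 31.3% of all genes were called higher and 12.3% lower. The median of the 14 was 0.15. Lnpep, an aminopeptidase that trims peptides in endosomes, fell by 1.56 (adjusted p = 0.0295), and Calr, the chaperone calreticulin of the loading complex, from 538 to 631 FPKM in isolated islets to 203 to 495 at day 60 (-0.70, adjusted p = 0.0367). At day 120 Psmb9 rose and Lnpep fell, where 24.3% of all genes were called higher and 7.03% lower.

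Of 15 other genes of the class II route, 8 rose and 1 fell at day 60, with a median of 0.80, and 3 rose at day 120. Over all genes 31.3% were called higher and 12.3% lower at day 60, and 24.3% higher at day 120. Ctss, the protease that removes most of the invariant chain, was at 15.5, 24.3, 18.1 and 14.5 FPKM in isolated islets, 429, 53.9, 103 and 88.1 at day 60 and 38.3 to 73.8 at day 120, with rises of 2.70 (adjusted p = 0.00179) and 1.51 (adjusted p = 0.0366). Lgmn, an endosomal protease, rose by 1.77 at day 60 (adjusted p = 0.0103), and March1, a ubiquitin ligase that removes class II from the cell surface, by 1.64 (adjusted p = 0.00526). Nfya, a subunit of the factor that binds the Y box, was at 1.28 to 3.20 FPKM in isolated islets, 5.38 to 6.60 at day 60 and 4.66 to 6.43 at day 120, with rises of 1.24 and 1.14 (adjusted p = 0.000859 and 0.00301).

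A further list joined MHC inducers with other genes of interferon gamma signalling, not all of them inducers. Of 13 listed, 11 were tested, and at day 60 3 rose and 2 fell, where 31.3% of all genes were called higher and 12.3% lower. Irf8, an interferon regulatory factor of myeloid and B cells, rose by 2.46 (adjusted p = 9.66e-05) and 1.46 at day 120 (adjusted p = 0.00394), and Ifngr1, a chain of the interferon gamma receptor, by 1.32 at day 60 (adjusted p = 0.00719). Irf1, a factor that interferon gamma induces, was at 35.4 to 55.2 FPKM in isolated islets, 22.1 to 30.1 at day 60 and 15.0 to 27.0 at day 120, and fell by 0.78 (adjusted p = 0.00819) and by 1.07 (adjusted p = 0.00384). Jak2, a kinase of that receptor, fell by 1.04 (adjusted p = 0.00906) and by 1.15 (adjusted p = 0.0102). Ifng itself, named after its values were seen, was listed at 0 in 9 of 12 libraries and reached 0.824 FPKM in day 60 replicate 3.

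Leaving out day 60 replicate 1 altered the sizes at day 60 and the calls at day 120. The same 18 genes were called higher at day 60 without it, where 34.9% of all genes were, and Tapbp was then called lower. All 8 class II genes remained, with a median of 2.09 in place of 2.36, while the class Ia median went from 0.63 to 0.26 and that of all genes from 0.27 to 0.29. At day 120, where this graft enters only through the shared estimate of the spread, the calls went from 8 to 14, adding Cd74, H2-M2 and 4 H2-T genes (H2-T9, H2-T10, H2-T23 and H2-T24). Without isolated islet replicate 1, 17 were higher and 2 lower at day 60, where 4974 of all genes (37%) were higher and 1976 lower. At day 120 that setting gave 7 higher and 3 lower. The shares of all genes at day 120 under these settings are not given here. Without isolated islet replicate 1 and day 60 replicate 1 together, the same 18 were higher and 2, Tapbp (-1.20) and H2-Q2 (-0.44), lower at day 60. Of all genes, 5681 (42.3%) were higher and 2121 lower in that fit. Without day 60 replicates 1 and 2 together, 14 of the 18 remained at day 60: all 8 class II genes but 4 of the 8 class Ib genes, with H2-M2, H2-Q7, H2-Q10 and H2-T24 lost. That fit called 4009 of all genes (29.8%) higher.

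**Figure D5:**
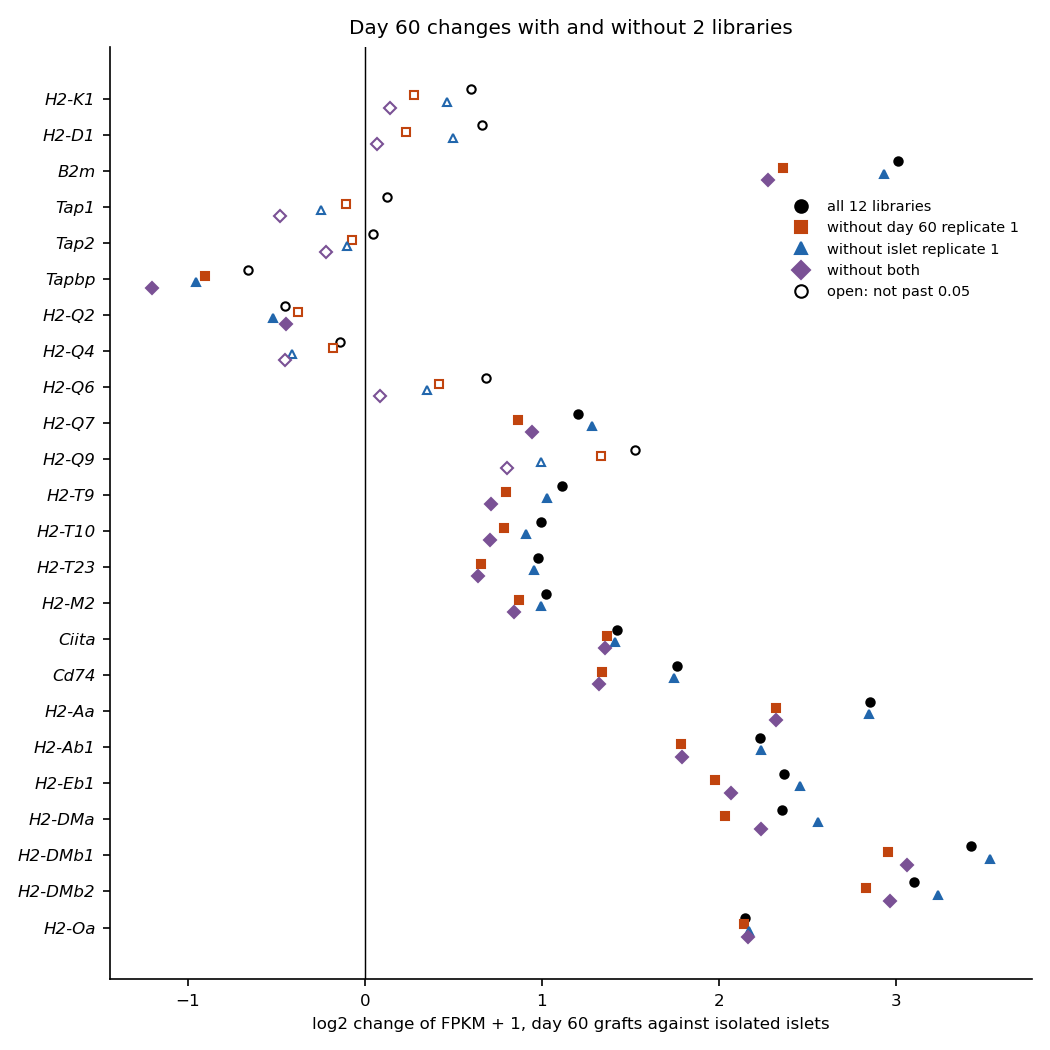
Change at day 60 against isolated islets on the log2(FPKM + 1) scale for 24 genes, with all 12 libraries, without day 60 replicate 1, without isolated islet replicate 1 and without both; open symbols did not pass an adjusted p of 0.05. Every class II gene stays filled and above 1.3, H2-K1 and H2-D1 move towards 0 without day 60 replicate 1, and Tapbp is filled below 0 in all 3 reduced sets.

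Between day 120 and day 60 no gene of the 34 was called by limma, where 2 of 13433 genes (0.0149%) were. Without adjustment 15 of the 34 had a p under 0.05, against 1356 of all genes. The values of 32 of the 34 lay on the lower side at day 120, with a median of -0.60 against 0.03 for all genes, and the class II median was -1.10. Without day 60 replicate 1 these medians were -0.29 for the 34 genes and -0.64 for class II, and again none was called. H2-DMb1 had a difference of -1.31 and H2-Aa of -1.21 (adjusted p = 0.49 each). The day 60 and day 120 grafts overlapped in H2-Aa, H2-Ab1, H2-Eb1 and Cd74.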

How the data were processed

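Total RNA of 12 libraries was converted to cDNA with a low-input kit and sequenced, per the labels' protocols. The authors deposited 1 table of FPKM per gene symbol and library. The submitters' processing notes name TopHat2, Cufflinks 2.1.1 and the build mm9, and the annotation and options are not given in the sources used here. Without counts, depth per gene is unknown, no counting interval can be given, and precision is read from the 4 libraries of a group.

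FPKM were transformed as log2(FPKM + 1), and genes with at least 1 FPKM in at least 4 libraries (13433 of 23234) were fitted with limma 3.58.1 in R 4.3.3 (statmod 1.5.0), with a trended, robust variance and group as the only term over all 12 libraries. P-values are two-sided and adjusted by Benjamini and Hochberg's method over every gene tested, with a threshold of 0.05, and the fit was tested on simulated data. Samples were grouped by their labels. Values by library were given for the genes at the core of each class and for the 10 others with the smallest p, and up to 4 genes of each further list were named by p. The members and lists were chosen with earlier results of these data known, and counts or medians over them are descriptions.

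Deviations from the group means were correlated between libraries with the same number. Day 60 and day 120 grafts of one number deviated together (0.18 to 0.442), whereas isolated islets did not with either graft group (-0.0699 to 0.0199 and -0.0784 to 0.0154). Alternatives were 23 planned settings and 2 added after seeing the data (other pseudocounts, filters, scalings, array weights, the replicate block and libraries left out). Promoter windows and the gene order are RefSeq on GRCm38.p6, used for sequences and neighbours only, and shared 50-base words were counted between transcripts of the reference annotation. Every value column of the table matched a sample.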

Additional observations from a re-analysis of the deposited data

Results flagged for a closer look

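Over the 34 tested genes and 3 groups, 13 of 102 sets of 4 libraries held a library whose gap to its nearest neighbour exceeded Dixon's 95% critical share of the group's range. The gaps were taken on FPKM and not on the log2 scale of the tests, which narrows the gap of a high library. They were not taken again on that scale. Chance alone gives about 1 in 20 for normally distributed values, which FPKM need not be. Genes of one library are also not independent of each other.

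Day 60 replicate 1 accounted for 9 of the 13, always as the highest day 60 graft. For classical and accessory class II genes its values were 957 FPKM for H2-Aa (next 278), 431 for H2-Ab1 (next 149.7), 257 for H2-Eb1 (next 98.6), 939 for Cd74 (next 338) and 49.9 for H2-DMb1 (next 14.9). For class I genes they were 647 for H2-K1 (next 272), 631 for H2-D1 (next 216), 12.5 for H2-Q10 (next 4.93) and 12.4 for the transcribed pseudogene H2-Bl (next 5.23). Macrophage markers summed to 4601 FPKM in this library and to 473 to 1176 in the other day 60 grafts, and their part in these values was not tested.

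Isolated islet replicate 1 was the lowest of its group in 3: Tap1 at 3.96 FPKM (next 12.4), H2-Q4 at 40.5 (next 86.0) and H2-Q2 at 40.0 (next 48.5). Day 120 replicate 2 was the lowest in 1, H2-T9 at 18.2 FPKM (next 21.5).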

How the results depend on the processing

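The count at day 60 stayed within 1.5 times of 18 under every alternative, and the 8 class II genes were called in each that kept them under test, with no filter as 8 of 10 class II genes tested. For single genes at day 60, 766 values kept their side of the threshold, 21 newly passed in the same direction and 20 no longer passed. Another 2 turned direction and newly passed. The 766 include values that turned direction without passing in either fit, such as Tap1 (0.12, and -0.11 without day 60 replicate 1). With array weights, whose estimation stopped before convergence and ranged from 0.125 (day 60 replicate 1) to 15.5 (day 60 replicate 3), 18 genes were higher and 7 lower at day 60, among them Tap1 (-0.81) and Tap2 (-0.61). Of all 13433 genes, 7258 (54%) were then higher and 3101 lower, and the median of the 34 genes relative to all genes was -0.0086. At day 120 the count of 8 was 16 with only the 2 groups compared and 17, with 5 lower, with array weights. It ran from 5 without isolated islet replicate 4 to 16 without day 60 replicates 1 and 2 together, and was 14 without day 60 replicate 1. Between day 120 and day 60, array weights called 13 genes lower at day 120, among them all 8 class II genes, B2m and H2-D1, and 1, H2-Q2, higher. For these alternatives the shares of all genes at day 120 and between the grafts are not given here. With the replicate block, 18 genes were higher and 1 lower at day 60, where 4123 of all genes (30.7%) were higher and 1681 lower. At day 120 the block gave 9 higher (adding Cd74). None was called between day 120 and day 60, also in the paired fit of the 8 grafts only. Upper quartile scaling, quantile normalization and the sum that leaves out hormone and acinar genes moved the median of all genes at day 60 from 0.27 to 0.13, -0.04 and -0.07. The class II median relative to it was 2.07, 2.10 and 2.04, against 2.10. Without counts, low genes such as H2-Ob cannot be given a detection limit, and the cause of these differences was not tested.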

Other observations

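MHC-like molecules encoded outside the complex, several of which pair with B2m, were also higher at day 60 where they were tested. All 6 tested of 10 listed rose at day 60, with a median change of 1.94, and 2 rose at day 120. The same rule called 31.3% of all genes higher at day 60 and 24.3% at day 120. Cd1d1, under 1 FPKM in every isolated islet library, entered the test only through the grafts, so the filter favoured this count and median. Fcgrt, the neonatal Fc receptor that recycles IgG, was at 0.875 to 3.14 FPKM in isolated islets, 16.0 to 112 at day 60 and 8.64 to 18.7 at day 120, with rises of 3.66 and 2.49 (limma adjusted p = 0.000497 and 0.0062). Cd1d1, which shows lipids to natural killer T cells, was at 0.117 to 0.796 FPKM, then 2.53 to 45.3, then 1.81 to 5.73, and rose by 3.23 at day 60 (adjusted p = 0.00187). Its near copy Cd1d2 rose by 2.03 (adjusted p = 0.00514), and reads may be divided between them. Hfe, which acts in iron balance, was at 3.91 to 7.68 FPKM in isolated islets and 8.67 to 60.7 at day 60, a rise of 1.85 (adjusted p = 0.00724). In each of these 4 genes day 60 replicate 1 was the highest library.

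Costimulatory molecules, the second signal to T cells, passed less often by count: 2 of 5 tested (9 listed) rose at day 60 and 0 at day 120, a difference between lists that was not tested. The shares of all genes called higher were 31.3% at day 60 and 24.3% at day 120. Cd86 rose by 1.08 (adjusted p = 0.0265), from 0.384 to 1.13 FPKM in isolated islets to 1.03 to 7.57 at day 60, with overlap. Icosl was highest in day 60 replicate 2, at 11.0 FPKM (adjusted p = 0.0391). Cd274, which encodes the inhibitory ligand PD-L1, was at 4.04, 13.4, 15.7 and 13.1 FPKM in isolated islets and 4.62 to 8.54 in the 8 grafts, with replicate 1 of the isolated islets again the low one, and did not pass (-0.49, adjusted p = 0.218).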
